A study of Homo sapiens with 14 samples.

Results

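Nascent transcription of 7 fuel switch genes was followed in A549 cells: the 4 pyruvate dehydrogenase kinase genes PDK1, PDK2, PDK3 and PDK4, and ANGPTL4, CPT1A and PPARD. They were taken by name from the 58780 genes of the deposited count table, and all 7 were among the 21910 genes tested. A549 is a human lung adenocarcinoma cell line. PRO-seq (precision run-on sequencing) sequences the RNA that engaged polymerases extend in permeabilized cells, so it reads transcription under way and not stored mRNA. The 14 libraries formed 7 groups of 2. Untreated cells received the DMSO carrier at 0.01% and carry the 15 min label. Other cells received 1 µM GSK591, an inhibitor of the arginine methyltransferase PRMT5, or 1 µM MS023, an inhibitor of type I arginine methyltransferases, for 15 min or for 3 h. The remaining groups received either inhibitor together with 100 nM dexamethasone (Dex), a synthetic glucocorticoid, for 15 min. All groups shared the 0.01% DMSO. A group with Dex but no inhibitor and a 3 h group with neither agent are not analysed here. The inhibitor and the time therefore cannot be told apart in the comparisons of 3 h libraries with untreated cells. The same holds between 3 h and 15 min of the same inhibitor, where longer inhibition and elapsed time go together.

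The pyruvate dehydrogenase complex turns pyruvate into acetyl-CoA, and the PDK enzymes phosphorylate it and switch it off, which spares glucose and favours fatty acids as fuel. PDK4 is the member of the family best known for being raised by fasting, glucocorticoids and fatty acid signals. ANGPTL4 encodes a secreted inhibitor of lipoprotein lipase, the enzyme that frees fatty acids from circulating lipoproteins, and is a known target of glucocorticoids, hypoxia and PPAR receptors. CPT1A encodes the liver-type carnitine palmitoyltransferase that admits long-chain fatty acids to mitochondria, and PPARD encodes PPAR delta, a nuclear receptor for fatty acids that is known to act on PDK4, ANGPTL4 and CPT1A in other tissues.

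Total counts per library ranged from 5768312 to 9606938, and mitochondrial genes took 39.8% to 58.0% of them. Pearson's r between replicates lay at 0.965 to 0.983 across genes, which are not independent, and no pair agreed within sampling noise (chi-square per degree of freedom 2.15 to 15.4). The pair given GSK591 and Dex stood apart, with the lowest r and the 15.4, against at most 6.05 and at least 0.977 in the other groups, and its library 2 had the 58.0% mitochondrial share and the lowest TMM scaling factor, 0.81. Nothing in the labels says that the libraries of a group came from separate cultures, so p-values measure the spread between these libraries, which may be technical. All 10 A549 epithelial markers examined were present, from 2.80 CPM (reads of a gene scaled to the library's total) for EPCAM to 302 CPM for KRT8, and CDKN2A, which this line lacks, had 0 to 1 counts per library. Of 8 markers of other cell types, 7 had at most 6 counts in any library. COL1A1, a fibroblast collagen gene, had 40 to 69 counts. The summed level of the 8 was 6.57 to 7.53 CPM in untreated cells and 8.11 to 8.76 CPM with MS023 and Dex, the 1 group whose range lay apart from the untreated one, and 4.95 to 8.72 CPM elsewhere. The part of this sum in the results was not tested. Dex reached its targets in both Dex groups, since beside GSK591 and MS023 it raised PER1 by 1.89 and 1.91, TSC22D3 by 1.72 and 1.89, and FKBP5 by 1.23 and 1.10 on the log2 scale.

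PDK4 (ENSG00000004799.7) lies on the minus strand of chromosome 7, from 95583499 to 95596491 (GRCh38, GENCODE 29), and has 9 merged exons of 4519 bases. ANGPTL4 (ENSG00000167772.11) lies on the plus strand of chromosome 19, from 8363289 to 8374373, and has 8 merged exons of 2482 bases. Sequences upstream of a RefSeq start of these 2 genes are shown because they are the members that responded to Dex. RefSeq (GRCh38.p14) holds 10 start windows for the 7 genes. Those below run 5′ to 3′ from position -250 to position -11 relative to the RefSeq start, at chr19:8363905-8364144 on the plus strand and chr7:95596527-95596766 on the minus strand. Capitals mark matches to the motifs searched.
ANGPTL4: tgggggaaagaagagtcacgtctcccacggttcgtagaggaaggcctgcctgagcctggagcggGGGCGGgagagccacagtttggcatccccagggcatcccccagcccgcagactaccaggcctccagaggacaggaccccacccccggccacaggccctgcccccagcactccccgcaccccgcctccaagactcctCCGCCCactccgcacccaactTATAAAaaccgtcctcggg
PDK4: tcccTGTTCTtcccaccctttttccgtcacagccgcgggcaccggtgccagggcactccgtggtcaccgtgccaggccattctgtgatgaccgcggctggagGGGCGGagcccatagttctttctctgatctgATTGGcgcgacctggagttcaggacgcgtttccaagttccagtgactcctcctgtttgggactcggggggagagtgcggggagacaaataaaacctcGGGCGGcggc
Both strands of the 250 bases upstream of each start were searched for AGAACA (the single glucocorticoid receptor hexamer), ACANNNTGT (the core of its palindrome), AGGTCA (the nuclear receptor hexamer) and AGGTCANAGGTCA (the PPAR and RXR repeat, which contains the nuclear receptor hexamer). The search also covered the TATA box (TATAAA), the CCAAT box (its name is its sequence) and the GC box (GGGCGG). The ANGPTL4 window held TATAAA at -29 and GGGCGG at -186 and, on the other strand, at -50. The PDK4 window held AGAACA at -246 and CCAAT at -117, both on the other strand, and GGGCGG at -148 and -20. Of 35116 RefSeq windows of the same length, 12.4% held AGAACA, 4.61% ACANNNTGT, 12.1% AGGTCA, 0.0171% the PPAR and RXR repeat, 10.7% TATAAA, 32% CCAAT and 42.6% GGGCGG. Among the other 5 members only the PPARD window held AGAACA, at -229 on the other strand. No member window held ACANNNTGT, AGGTCA or the repeat, which says only that these letters are not in these windows. The windows had a GC content of 67.5% (ANGPTL4) and 62.1% (PDK4) over the bases printed.

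Per kilobase of exon, ANGPTL4 had the highest level of the 7 genes, with a mean over the 14 libraries of 19.6 RPKM (CPM divided by the length of the merged exons in kilobases). PDK2 followed at 5.37, PDK4 at 3.47, CPT1A at 2.05, PPARD at 1.29, PDK3 at 1.15 and PDK1 at 0.788 RPKM. Counts per library were 160 to 972 for ANGPTL4, 166 to 332 for PDK2, 74 to 234 for PDK4, 91 to 148 for CPT1A, 67 to 131 for PDK1, 33 to 59 for PPARD and 25 to 76 for PDK3. The precision follows these counts: the standard error of a log2 fold change was 0.11 for ANGPTL4 and 0.22 to 0.30 for PPARD and PDK3 in the comparisons of Dex with inhibitor alone. Levels below are CPM on TMM-scaled library sizes, as mean ± SD with n = 2. In such bulk libraries fewer transcribing cells and less transcription per cell cannot be told apart.

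**Figure D1:**
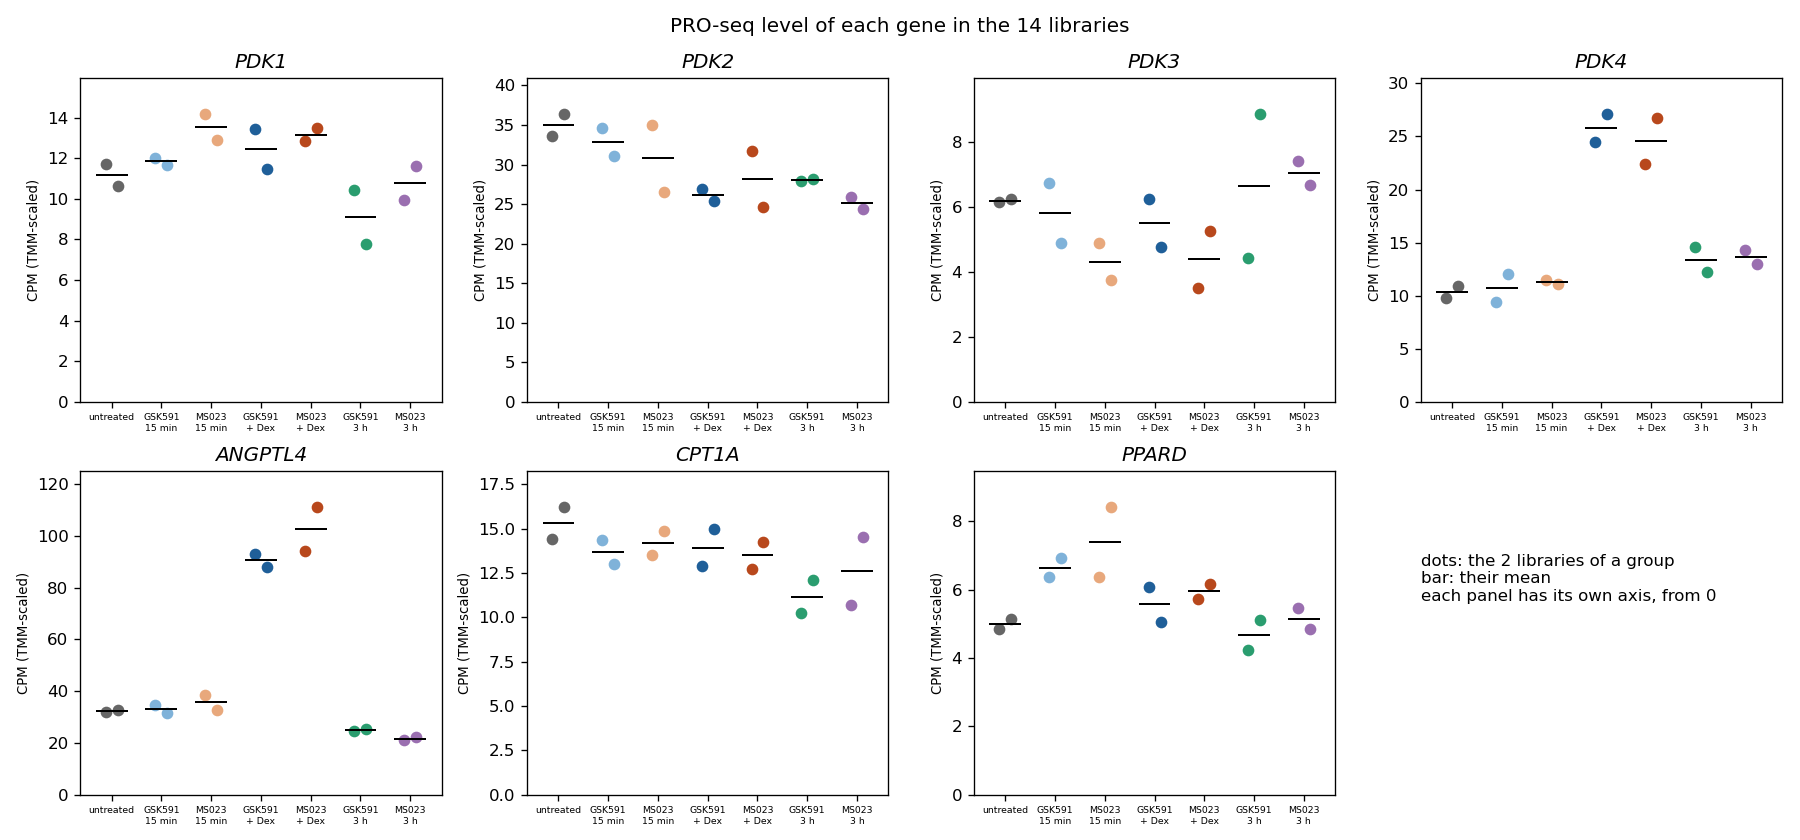
Level of each of the 7 genes in CPM (y axis, from 0, a separate scale in each panel) in the 14 libraries by group (x axis), with dots for libraries and bars for the mean of 2. The 4 Dex libraries of ANGPTL4 (88.0 to 111 CPM) and of PDK4 (22.4 to 27.1 CPM) sit above all other libraries of the same gene.

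ANGPTL4 and PDK4 rose within 15 min of Dex beside either inhibitor (2.17- to 2.86-fold), while PDK1, PDK2, PDK3, CPT1A and PPARD passed the test in neither comparison. This comparison asks what Dex adds at a fixed inhibitor and time. ANGPTL4 stood at 34.7 and 31.7 CPM with GSK591 alone and at 93.1 and 88.0 CPM with GSK591 and Dex. With MS023 alone its libraries stood at 38.5 and 32.9 CPM, and with MS023 and Dex at 94.3 and 111 CPM. No library with Dex overlapped one without it. The libraries compared also did not overlap for 43.5% of all tested genes beside GSK591 and 49.4% beside MS023. The change was 1.45 ± 0.11 (SE) on the log2 scale beside GSK591, a 2.72-fold rise (edgeR's quasi-likelihood test, Benjamini-Hochberg adjusted p = 1.1e-12). Beside MS023 it was 1.52 ± 0.11, a 2.86-fold rise (adjusted p = 6.9e-14). By p ANGPTL4 ranked 5 beside GSK591 and 8 beside MS023 among the 21910 genes, and by size of rise 94 and 160.

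PDK4, the inducible kinase of the family, also rose in both comparisons. It stood at 9.42 and 12.0 CPM with GSK591 alone and at 24.5 and 27.1 CPM once Dex was present. With MS023 alone its libraries stood at 11.5 and 11.1 CPM, against 22.4 and 26.7 CPM with MS023 and Dex. As for ANGPTL4, the libraries with and without Dex did not overlap. The log2 fold change was 1.26 ± 0.16 beside GSK591 (2.40-fold, edgeR adjusted p = 7.1e-07) and 1.12 ± 0.15 beside MS023 (2.17-fold, adjusted p = 1.4e-06).

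Thus 2 of 7 members were called beside GSK591, where 3.70% of all tested genes were called and 1.43% were called as higher. Beside MS023 again 2 of 7 were called, where 8.97% of all tested genes were called and 5.90% as higher. The members were chosen with earlier results of these data known. Nothing about the 7 genes as a set is therefore read from these counts, or from those of the Dex groups against untreated cells. The 2 Dex comparisons share no library. Across the 11 alternatives run for each comparison, every one kept these 4 calls, with log2 fold changes of 1.25 to 1.51 and 1.34 to 1.64 for ANGPTL4 and 1.05 to 1.44 and 0.95 to 1.25 for PDK4 (GSK591 first). Without library 2 of the group given GSK591 and Dex, the one that stood apart, the changes beside GSK591 were 1.498 for ANGPTL4 (adjusted p = 2.9e-12) and 1.202 for PDK4 (adjusted p = 3.7e-05).

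**Figure D2:**
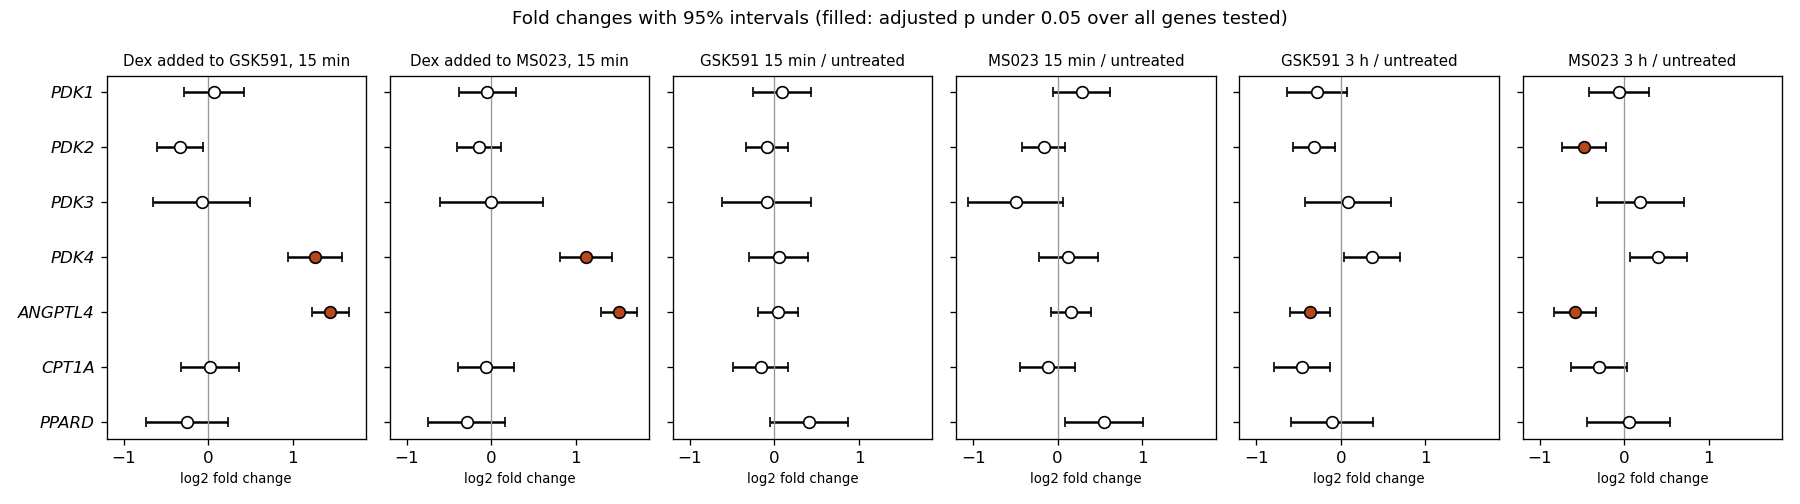
Log2 fold change (x axis) with its 95% interval for each of the 7 genes (y axis) in 6 comparisons, with filled points for an adjusted p under 0.05. ANGPTL4 and PDK4 lie at 1.12 to 1.52 in both Dex comparisons, and ANGPTL4 lies below 0 in both 3 h comparisons.

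PDK2, the most transcribed kinase per kilobase in untreated cells, was lower with Dex beside GSK591 in both libraries but did not pass the test. Its values were 34.6 and 31.1 CPM without Dex and 26.9 and 25.4 CPM with it, a log2 difference of -0.33 ± 0.13 (edgeR adjusted p = 0.18). With library size alone it was called, at -0.53 (adjusted p = 0.034), a scaling under which the median of all genes was -0.21. Beside MS023 its libraries overlapped, at 35.0 and 26.6 CPM without Dex and 31.7 and 24.7 CPM with it (log2 difference -0.15 ± 0.13, adjusted p = 0.60). PDK2 (ENSG00000005882.11, chromosome 17, 50094737 to 50112152, plus strand) shares 2113 bases, 38.6% of its merged exons, with SAMD14 on the opposite strand. The strand setting of the counting is not given in the sources used here, so reads of these genes cannot be told apart if strand was ignored. SAMD14 itself stood at 23.8 to 26.7 CPM in the groups and differed by -0.10 ± 0.13 with Dex beside GSK591 on the log2 scale.

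The other 4 members showed no called Dex change. The intervals say how large a change in the count of a whole gene could have gone unseen. All 4 span a longer stretch of the genome than ANGPTL4 and PDK4. Counts were given per gene, so a change limited to part of a gene, such as near its start, was not tested. For CPT1A the 95% interval of the log2 difference ran from -0.32 to 0.37 beside GSK591 and from -0.40 to 0.27 beside MS023. For PDK1 the intervals ran from -0.28 to 0.43 and from -0.38 to 0.29. The low-count genes had wider intervals, from -0.65 to 0.49 and from -0.61 to 0.61 for PDK3, and from -0.73 to 0.23 and from -0.74 to 0.16 for PPARD. With these errors a call beside GSK591 needed a 1.48-fold change of CPT1A, a 1.73-fold change of PPARD and a 1.92-fold change of PDK3. Smaller estimated changes would not have been called with these errors.

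The size of the Dex response was also compared between the inhibitors, as an interaction term. The difference, GSK591 minus MS023, was -0.07 ± 0.15 for ANGPTL4 (95% interval -0.38 to 0.24, edgeR adjusted p = 0.94). For PDK4 it was 0.14 ± 0.22 (interval -0.31 to 0.59, adjusted p = 0.90). None of the 7 members was called, against 1.15% of all tested genes. The intervals leave room for a Dex effect on PDK4 that differs between the inhibitors by up to 0.59 on the log2 scale.

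Against untreated cells, with which the inhibitor differs as well as Dex, ANGPTL4 was 1.49 ± 0.11 higher on the log2 scale with GSK591 and Dex and 1.67 ± 0.10 higher with MS023 and Dex. PDK4 was 1.31 ± 0.16 and 1.25 ± 0.15 higher. In each of these 2 comparisons 2 of 7 members were called, where 5.85% and 7.66% of all tested genes were. These comparisons share the untreated libraries. PDK2 was at the threshold with GSK591 and Dex, at 26.1 ± 1.0 CPM against 35.0 ± 2.0 CPM (log2 difference -0.42 ± 0.13, edgeR adjusted p = 0.0502), and it was called in 5 of 11 alternatives. With MS023 and Dex PDK2 was at 28.2 CPM on average (log2 difference -0.31 ± 0.13, adjusted p = 0.13), and it was called in 1 alternative, when only the groups compared were fitted (adjusted p = 0.041).

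The share of PDK4 in the kinase family follows from its rise with Dex and is given as a description. Of the summed RPKM of the 4 kinases, PDK4 took 19.7% to 27.5% in the 6 libraries at 15 min without Dex and 40.3% to 48.5% in the 4 Dex libraries, so the ranges did not overlap. Against the 4 libraries with an inhibitor alone at 15 min, the mean share was 20.8 percentage points higher (45.0% against 24.2%). PDK2 took 54.3% to 60.1% at 15 min without Dex and 36.4% to 46.9% with it. PDK1 and PDK3 together made up the rest, with PDK1 at 5.16% to 9.71% over all libraries. The summed level of the 4 kinases was 10.7 ± 0.51 RPKM in untreated cells, 12.4 ± 0.09 with GSK591 and Dex and 12.3 ± 0.05 with MS023 and Dex. A share does not depend on the scaling of the libraries. How reads in the sequence that PDK2 shares with SAMD14 were counted is not given, so the PDK2 values and all the shares may be affected. The 4 kinases shared no 36-base exon stretch with each other.

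**Figure D3:**
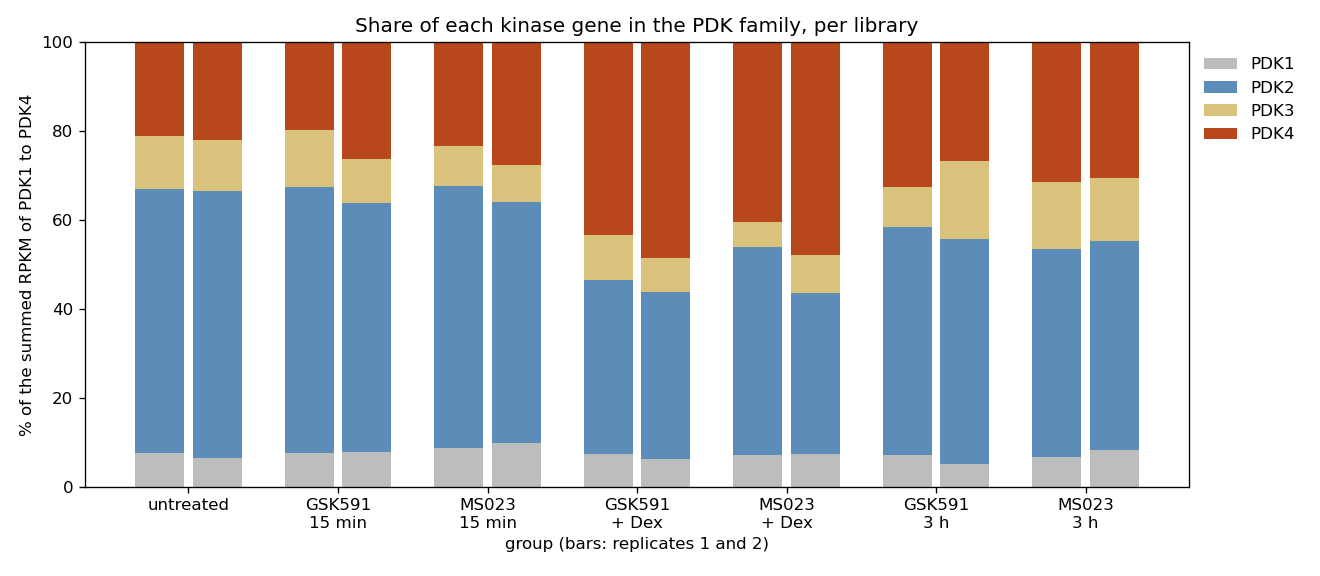
Share of PDK1, PDK2, PDK3 and PDK4 in the summed RPKM of the family (y axis, %) for each library (1 bar each, 2 per group on the x axis). PDK4 takes 40.3% to 48.5% in the 4 Dex bars, against 19.7% to 27.5% in the 6 bars at 15 min without Dex.

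No member passed the test with either inhibitor alone at 15 min. Against untreated cells 0 of 7 members were called with GSK591, where 0.306% of all tested genes were called, and 0 of 7 with MS023, where 0.183% were. ANGPTL4 stood at 31.8 and 32.6 CPM in untreated cells, inside or close to the ranges with GSK591 and MS023 given above. PDK4 stood at 9.79 and 10.9 CPM in untreated cells, and its log2 differences were 0.05 ± 0.17 and 0.13 ± 0.17. At an unadjusted p under 0.05, edgeR listed 0 members with GSK591 and 1 with MS023, which was PPARD, and DESeq2 called none of the 7 after adjustment.

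PPARD, the fatty acid receptor gene, had its highest levels in the groups given an inhibitor alone for 15 min. It stood at 4.84 and 5.15 CPM in untreated cells, at 6.36 and 6.91 CPM with GSK591 and at 6.38 and 8.41 CPM with MS023. The untreated libraries lay below all 4, but libraries also did not overlap for 38.0% (GSK591) and 39.6% (MS023) of all tested genes. The log2 differences of 0.41 ± 0.23 and 0.54 ± 0.23 had edgeR adjusted p = 0.81 and 0.52. With 33 to 59 counts per library, a call in the MS023 comparison needed a 2.01-fold change. At 3 h the PPARD libraries stood at 4.22 to 5.45 CPM. The log2 differences of PPARD from 15 min were -0.51 ± 0.23 with GSK591 and -0.49 ± 0.23 with MS023, neither called (edgeR adjusted p = 0.21 and 0.18). PPARD (ENSG00000112033.13) lies on chromosome 6, from 35342558 to 35428191, plus strand.

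ANGPTL4 fell in the 3 h libraries of both inhibitors, in contrast to its rise with Dex. It stood at 24.7 and 25.3 CPM after 3 h of GSK591 and at 21.2 and 22.2 CPM after 3 h of MS023, below every 15 min library. Between 3 h and untreated libraries, 54.4% (GSK591) and 50.5% (MS023) of all tested genes did not overlap. Against untreated cells it fell by 0.37 ± 0.12 on the log2 scale with GSK591 (edgeR adjusted p = 0.038) and by 0.58 ± 0.12 with MS023 (adjusted p = 0.0013). Against 15 min of the same inhibitor it fell by 0.41 ± 0.12 (adjusted p = 0.030) and by 0.73 ± 0.12 (adjusted p = 3.8e-05). The comparisons with untreated cells share those libraries, and each inhibitor's 3 h libraries serve in both of its comparisons.

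The MS023 falls of ANGPTL4 were called in all 11 alternatives of each comparison. The GSK591 falls were not: each was called in 4 of 11, and each lost its call with DESeq2 (adjusted p = 0.12 and 0.097), with library size alone (0.39 and 0.24), with no count filter (0.068 and 0.076) and when any single library of the 4 compared was left out. Without untreated library 1 or 2 the adjusted p against untreated cells was 0.14 or 0.23, and without GSK591 3 h library 1 or 2 it was 0.21 or 0.12. Against 15 min the values were 0.25 and 0.089 without a 15 min library and 0.19 and 0.13 without a 3 h library. Among the Dex check genes, PER1 and TSC22D3 also stood lower at 3 h than in untreated cells, by 0.93 ± 0.15 and 0.71 ± 0.13 on the log2 scale with GSK591 and by 0.73 ± 0.15 and 0.53 ± 0.13 with MS023, whereas FKBP5 was at 0.00 ± 0.24 (-0.0041) and -0.12 ± 0.25.

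PDK4 was not lower at 3 h. It stood at 14.6 and 12.2 CPM after 3 h of GSK591 and at 14.3 and 13.0 CPM after 3 h of MS023, above the 9.42 to 12.0 CPM of all 15 min libraries without Dex. Libraries at 3 h and untreated libraries also did not overlap for 54.4% (GSK591) and 50.5% (MS023) of all tested genes. The log2 differences from untreated cells were 0.37 ± 0.16 and 0.40 ± 0.17 (edgeR adjusted p = 0.15 for both), and no alternative called them. Within each library the ratio of PDK4 to ANGPTL4 RPKM removes scaling. Its log2 was -2.75 to -2.26 in the 6 libraries at 15 min without Dex. In the 4 libraries at 3 h it was -1.92 to -1.43, a mean difference of 0.86. With Dex the log2 ratio was -2.94 to -2.56, which overlapped the libraries with an inhibitor alone at 15 min (difference -0.29). These ratios and shares were chosen after their values were seen, and they pool libraries of several groups, so they are descriptions only. The PDK4 share of the family was 26.6% to 32.5% at 3 h. On average this was 6.95 percentage points above the 6 libraries at 15 min without Dex, though the ranges overlapped.

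**Figure D4:**
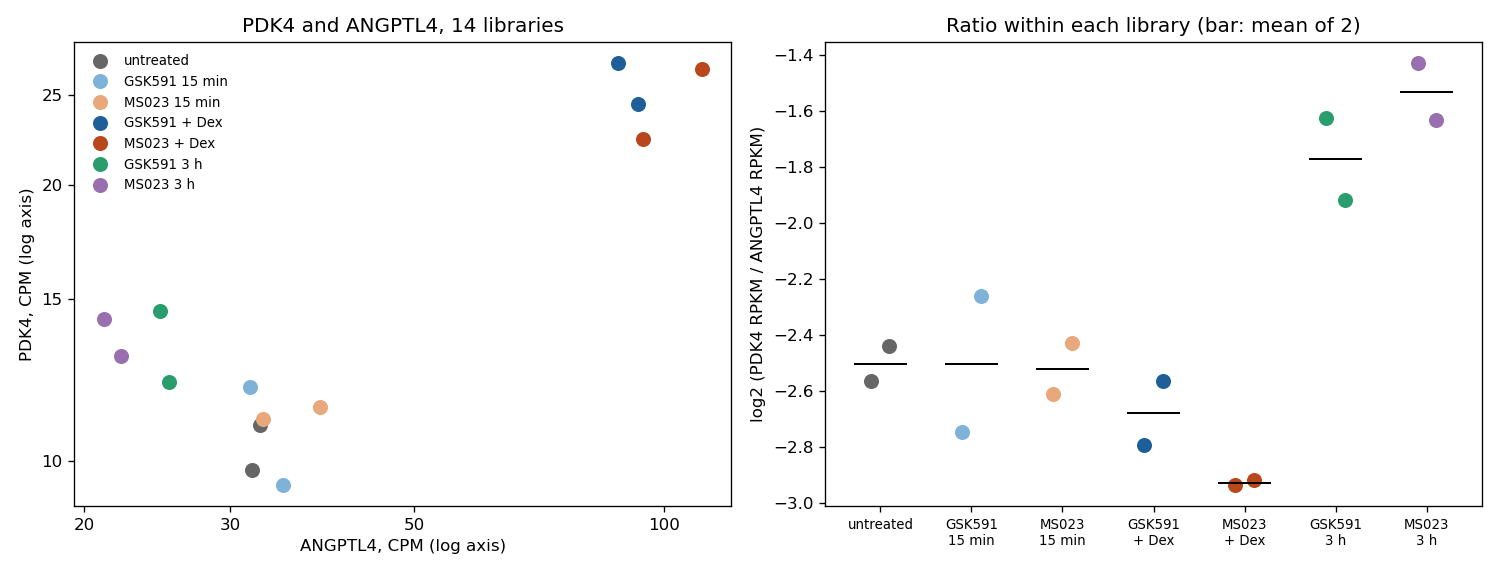
Left, PDK4 against ANGPTL4 in CPM (both axes logarithmic) with 1 point per library. Right, log2 of the ratio of PDK4 to ANGPTL4 RPKM (y axis) per library by group, with bars for the mean of 2; the 3 h libraries lie at -1.92 to -1.43 and all others at -2.94 to -2.26.

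PDK2 was lower in every 3 h library than in untreated cells. A separation in either direction was found for 54.4% (GSK591) and 50.5% (MS023) of all tested genes. It stood at 33.6 and 36.3 CPM in untreated cells, at 27.96 and 28.14 CPM after 3 h of GSK591 and at 25.8 and 24.4 CPM after 3 h of MS023. Against untreated cells it fell by 0.47 ± 0.13 on the log2 scale with MS023 (edgeR adjusted p = 0.015), and the difference of -0.32 ± 0.13 with GSK591 was not called (adjusted p = 0.10). The MS023 call was lost with DESeq2 (adjusted p = 0.085), with library size alone (0.091), without untreated library 1 or 2 (0.053 and 0.20) and without MS023 3 h library 1 or 2 (0.071 and 0.12). Against 15 min of MS023 the difference was -0.31 ± 0.13 (adjusted p = 0.13), and it became -0.47 (adjusted p = 0.038) without library 2 of the 15 min group and -0.08 (-0.0776, adjusted p = 0.86) without its library 1. SAMD14, which shares exon sequence with PDK2, differed by -0.02 ± 0.13 between 15 min and 3 h of MS023. Against untreated cells SAMD14 differed by 0.13 ± 0.12 after 3 h of MS023.

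CPT1A, the gate of the carnitine shuttle, had its highest mean in untreated cells, 14.4 and 16.2 CPM, and its lowest after 3 h of GSK591, 10.2 and 12.1 CPM. The log2 difference was -0.46 ± 0.16 and missed the threshold (edgeR adjusted p = 0.064), but it was called when only these groups were fitted (adjusted p = 0.024) and with a term for the replicate number (adjusted p = 0.049). After 3 h of MS023 its libraries were far apart, at 10.7 and 14.5 CPM. CPT1A (ENSG00000110090.12) lies on chromosome 11, from 68754620 to 68844410, minus strand, and neighbours in the order of its group levels overlapped in all 6 cases.

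PDK1 and PDK3 were called in no comparison. PDK1 (ENSG00000152256.13, chromosome 2, 172555373 to 172608669, plus strand), a kinase known as a hypoxia target, ranged from 9.12 ± 1.9 CPM after 3 h of GSK591 to 13.5 ± 0.89 CPM after 15 min of MS023. PDK3 (ENSG00000067992.13, chromosome X, 24465221 to 24541862, plus strand) ranged from 4.31 ± 0.79 CPM after 15 min of MS023 to 7.03 ± 0.54 CPM after 3 h of MS023. The log2 difference between these was 0.69 ± 0.28 (edgeR adjusted p = 0.11), and a call needed a 1.75-fold change. The PDK3 libraries after 3 h of GSK591 stood at 4.43 and 8.84 CPM, the widest pair of any group for this gene.

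In all, 1 of 7 members was called after 3 h of GSK591 against untreated cells, where 11.0% of all tested genes were called, and 2 of 7 after 3 h of MS023, where 7.63% were. Against 15 min of the same inhibitor 1 of 7 was called with each, where 6.41% (GSK591) and 12.0% (MS023) of all tested genes were. Nothing about the 7 genes as a set is read from these counts.

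The inhibitors were also compared with each other at matched dose and time, in 14 pairs of a gene and a time. At 15 min 0 of 7 members were called, where 1.09% of all tested genes were, and at 3 h 0 of 7, where the percentage called was 0, although edgeR gave 1319 genes an unadjusted p under 0.05 and DESeq2 called 10. At 3 h the log2 difference, GSK591 minus MS023, was 0.21 ± 0.13 for ANGPTL4 (95% interval -0.05 to 0.47, adjusted p = 0.86) and -0.03 ± 0.16 for PDK4 (interval -0.35 to 0.29, adjusted p = 0.99). The ANGPTL4 libraries of the 2 inhibitors did not overlap at 3 h, at 24.7 and 25.3 CPM against 21.2 and 22.2 CPM. The same held for 35.8% of all tested genes. At 15 min the differences were -0.11 ± 0.12 and -0.08 ± 0.17.

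In order of group mean, ANGPTL4 ran from MS023 with Dex (103 ± 12 CPM) and GSK591 with Dex (90.5 ± 3.6) through MS023, GSK591 and untreated cells at 15 min (35.7 ± 4.0, 33.2 ± 2.1 and 32.2 ± 0.56) to GSK591 and MS023 at 3 h (25.02 ± 0.46 and 21.7 ± 0.72). The 3 groups at 15 min without Dex overlapped with their neighbours. PDK4 ran from GSK591 with Dex (25.8 ± 1.8 CPM) and MS023 with Dex (24.6 ± 3.0) through MS023 and GSK591 at 3 h (13.7 ± 0.89 and 13.4 ± 1.7) to MS023, GSK591 and untreated cells at 15 min (11.3 ± 0.25, 10.7 ± 1.9 and 10.4 ± 0.82). For PDK4 the overlap was within these 3 sets and not between them. Its nearest libraries at 3 h and 15 min stood close, at 12.2 and 12.0 CPM. Between 3 h and 15 min of the same inhibitor, 50.5% (GSK591) and 52.0% (MS023) of all tested genes did not overlap.

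The authors' deposited tables, which compare each treatment with untreated cells by DESeq2, called ANGPTL4 and PDK4 in both Dex comparisons and none of the 7 genes in the other 4. In the authors' deposited table for GSK591 with Dex the log2 fold changes were 1.47 for ANGPTL4 (adjusted p = 2.2e-12) and 1.23 for PDK4 (adjusted p = 0.0020). In the authors' deposited table for MS023 with Dex they were 1.65 (adjusted p = 1.9e-16) and 1.16 (adjusted p = 0.0033). For ANGPTL4 at 3 h the authors' deposited tables gave -0.38 with GSK591 (adjusted p = 0.28) and -0.59 with MS023 (adjusted p = 0.069), the same directions without a call.

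Over the 14 libraries the log2 CPM of ANGPTL4 and PDK4 correlated at Pearson's r = 0.83, a description in which the 4 Dex libraries carry most of the range. The 5 genes most like ANGPTL4, among 14823 genes of at least 2 CPM, were TSC22D3 (r = 0.99), AKAP13 (0.98), MT2A (0.98), PER1 (0.98) and MT1X (0.97). For PDK4 they were MCL1, whose row in the count table also carries the name ADAMTSL4-AS1 (r = 0.96), S1PR3 (0.96), LURAP1L (0.96), CT62 (0.94) and CITED2 (0.94). The lists did not share a gene at this cut of 5. Every gene in both lists stood higher with Dex beside both inhibitors, by 0.48 to 1.91 on the log2 scale. A difference between the lists was not tested. TSC22D3 and PER1 encode a glucocorticoid-induced leucine zipper protein and a circadian repressor, MT2A and MT1X are metallothioneins, and MCL1 is an anti-apoptotic BCL2 relative.

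Of 78 other genes of the fuel pathway in 7 lists, 70 were tested. Those that did not pass the filter included ACADL, LPL, CD36, FABP4, RXRG and PPARGC1A, so lipoprotein lipase itself, the target of ANGPTL4, was not tested. With Dex 4 of 70 were called beside GSK591 (2 higher, 2 lower) and 4 of 70 beside MS023 (all higher), that is 5.71% each, above the 3.70% of all genes beside GSK591 and below the 8.97% beside MS023. Nothing about the lists is read from these shares. Their median log2 fold changes were 0.03 and 0.00 (0.0305 and -0.0027), near the medians of all genes of 0.00 and -0.02 (-0.0043 and -0.0156). With an inhibitor alone at 15 min 0 of 70 were called in either comparison with untreated cells.

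SLC22A5, the plasma membrane carnitine importer, rose with Dex beside both inhibitors, by 0.39 ± 0.11 (edgeR adjusted p = 0.024) and 0.60 ± 0.11 (adjusted p = 9.2e-05) on the log2 scale, from 40.7 to 53.6 CPM and from 37.1 to 56.1 CPM. It was the single called gene among the 8 of the carnitine shuttle and malonyl-CoA list in these comparisons. FOXO1 and FOXO3, transcription factors known to act on PDK4, rose beside MS023 by 0.92 ± 0.18 (adjusted p = 0.00048) and 0.81 ± 0.15 (adjusted p = 0.00022). Beside GSK591 neither was called, and in that comparison ESRRA, an orphan receptor that works with PPAR coactivators, fell by 0.55 ± 0.11 (adjusted p = 0.0021). LDHB, a lactate dehydrogenase subunit, rose by 0.60 ± 0.12 (adjusted p = 0.0015) and SLC16A3, the lactate exporter MCT4, fell by 0.34 ± 0.10 (adjusted p = 0.041) beside GSK591. ACSL3, which activates fatty acids, rose by 0.39 ± 0.12 beside MS023 (adjusted p = 0.030). In the interaction test 0 of 70 list genes were called, so none of these Dex effects was shown to differ between the inhibitors.

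None of the 8 genes of the pyruvate dehydrogenase complex and its phosphatases, the substrate and the opponents of the PDK enzymes, was called with Dex beside either inhibitor. Nor was any of the 14 tested genes of fatty acid beta-oxidation, or of the 4 tested ketone and uncoupling genes, which were called in none of the 13 comparisons. With 3.70% and 8.97% of all tested genes called in the Dex comparisons, lists of this size hold few or no called genes either way, and nothing about them is read from these counts. Against untreated cells 4 of 70 list genes were called with GSK591 and Dex and 5 of 70 with MS023 and Dex, all higher. These shares of 5.71% and 7.14% stood near the 5.85% and 7.66% of all tested genes. Besides SLC22A5, FOXO1 and FOXO3 in both, these were LDHB in the former and, in the latter, PDHX, a structural subunit of the complex (0.44 ± 0.14, edgeR adjusted p = 0.049), and DECR1, an auxiliary enzyme of beta-oxidation (0.86 ± 0.27, adjusted p = 0.043).

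**Figure D5:**
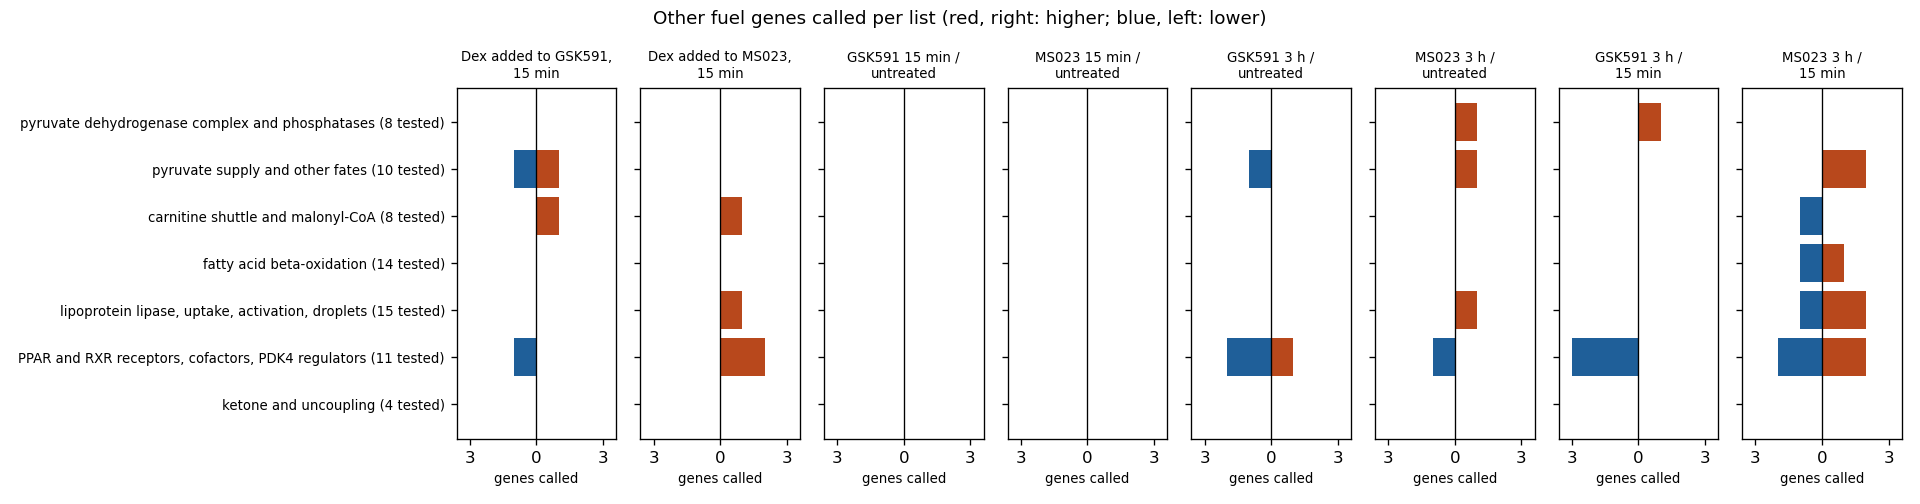
Number of genes called (x axis, higher to the right in red and lower to the left in blue) in each of 7 lists of other fuel genes (y axis, with the number tested) in 8 comparisons. No list shows more than 3 genes called in 1 direction in any panel, and the panels of inhibitor alone at 15 min against untreated cells hold none.

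Between 15 min and 3 h RXRA, the partner that PPAR receptors need to bind DNA, fell by 0.61 ± 0.10 (log2) with GSK591 and by 0.60 ± 0.10 with MS023 (edgeR adjusted p = 9.3e-05 and 4.0e-05). PPARGC1B, a PPAR coactivator, fell by 0.51 ± 0.15 with GSK591 (adjusted p = 0.033), and DLD, a subunit of the complex, rose by 0.39 ± 0.12 (adjusted p = 0.047). With MS023, 12 of 70 list genes were called between 15 min and 3 h, 7 higher and 5 lower, or 17.1% against 12.0% of all genes. Those higher included HILPDA (0.61 ± 0.13) and PLIN2 (0.60 ± 0.20), which encode lipid droplet proteins, HADH (0.85 ± 0.25), PKM (0.33 ± 0.11), SLC16A3 (0.34 ± 0.10) and FOXO3 (0.54 ± 0.15). Those lower included RXRA, LMF1, a maturation factor of lipoprotein lipase (-0.65 ± 0.16), ACACA, which makes malonyl-CoA, the inhibitor of CPT1A (-0.40 ± 0.10), and ETFB (-0.34 ± 0.11).

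Against untreated cells 4 of 70 list genes (5.71%) were called after 3 h of either inhibitor, below the 11.0% (GSK591) and 7.63% (MS023) of all tested genes. With GSK591 1 was higher and 3 were lower. These included FOXO3, which was higher (0.53 ± 0.15), and RXRA (-0.36 ± 0.10) and LDHB (-0.36 ± 0.12), which were lower. With MS023 3 were higher and 1 was lower. The higher ones were HILPDA (0.47 ± 0.12), PDP2, a phosphatase that reverses PDK action (0.44 ± 0.14), and PCK2 (0.41 ± 0.12). Between the inhibitors at 3 h 0 of 70 were called.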

How the data were processed

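PRO-seq was measured in 14 A549 libraries. The authors deposited a table of raw read counts per gene, made with Subread and featureCounts 2.0.1 on hg38 per the submitters' processing notes. The aligner settings, counting feature, strand setting and duplicate handling are not given in the sources used here. The deposited counts scaled with exon length (slope 0.84 ± 0.02 SE on log scales over 13797 protein-coding genes) and fell with gene span (-0.36 ± 0.01), so levels per length use exons. The authors' deposited DESeq2 tables give log2 fold changes and p-values, per the file headers. All gene identifiers matched GENCODE 29, which named the 22731 genes the table leaves blank.

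Counts as deposited were tested with edgeR 4.0.16 (R 4.3.3): TMM scaling, edgeR's expression filter (21910 genes), all libraries in 1 quasi-likelihood fit with 1 coefficient per group (7 residual degrees of freedom, biological coefficient of variation 0.073), 13 contrasts, and Benjamini-Hochberg adjustment over all genes tested. A gene was called at an adjusted p under 0.05. Standard errors come from the fit, intervals are 95%, and CPM uses library sizes after TMM. Changes are, without a spike-in, relative to the bulk of genes. The script was tested on simulated data. Ratios and shares within libraries are given as descriptions.

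The members and lists were chosen with earlier results of these data known. All 7 members are reported in every contrast where their values bear on it, with at most 3 called genes per list and contrast, and the 5 genes with the highest correlation with ANGPTL4 and with PDK4. Some list genes are counted but not reported by name here. Alternatives were DESeq2 size factors, library size alone, mitochondrial genes removed, no count filter, DESeq2 1.42.0, only the groups compared, a replicate block and leaving out each library.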

Additional observations from a re-analysis of the deposited data

Results flagged for a closer look

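One fuel list gene differed between the inhibitors in a direct test. FOXO3 was 0.66 ± 0.15 (SE) higher on the log2 scale with GSK591 than with MS023 at 15 min (32.0 against 20.5 CPM, edgeR adjusted p = 0.018, called where 1.09% of all tested genes were). Untreated cells stood at 21.9 CPM, and FOXO3 was not called against them with either inhibitor at 15 min. None of the 7 members was called in a direct test between the inhibitors.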

How the results depend on the processing

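For 91 pairs of a member and a contrast, 1029 comparisons with an alternative were made. In 984 the value neither crossed the threshold nor changed sign by more than its standard error, though 46 of these, all uncalled, did change sign by less. Another 20 lost a call, 11 gained one and 14 reversed by more than the standard error or with a call. Of the 11 gained, 9 were for PDK2. The ANGPTL4 and PDK4 rises with Dex kept their calls throughout. The number of members called after 3 h of GSK591 against untreated cells, 1 as reported, was 0 with library size alone, no count filter or DESeq2, 3 when only the groups compared were fitted (ANGPTL4, CPT1A and PDK2) and 2 with the replicate block (ANGPTL4 and CPT1A), and 0 without any single library. After 3 h of MS023, 2 as reported became 1 with library size alone, with DESeq2 and without any single library. Between 15 min and 3 h of GSK591, 1 became 0 with library size alone, no count filter, DESeq2 and without any single library, and for MS023 the number was 1 to 2 when 1 library was left out. The replicate block also brought PDK2 with GSK591 and Dex against untreated cells to an adjusted p of 0.037, and it changed no other call. Replicate numbers did not pair the libraries, since deviations of same-numbered libraries correlated at -0.07 to 0.10 over 21 pairs of groups (median 0.02).

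Scaling by library size alone put the median of all genes at -0.21 and -0.19 on the log2 scale in the Dex comparisons (GSK591, MS023). The median was 0.16 after 15 min of MS023, -0.16 from 15 min to 3 h of it and at most 0.12 in size elsewhere. Changes under this scaling are to be read against these medians. Under it CPT1A reversed to 0.052 with MS023 at 15 min and to -0.18 with Dex beside GSK591, where PDK1 reversed to -0.13. None of these was called. Leaving out 1 library gave uncalled reversals in these ranges: PDK4 with GSK591 at 15 min -0.13 to 0.21, PDK2 with Dex beside MS023 -0.33 to 0.083, ANGPTL4 and PDK2 between the inhibitors at 15 min -0.21 to 0.017 and -0.091 to 0.31, PDK3 with Dex beside MS023 -0.31 to 0.27, PDK3 at 3 h between the inhibitors -0.67 to 0.33, with GSK591 against untreated cells -0.49 to 0.52 and against 15 min -0.39 to 0.61, and CPT1A from 15 min to 3 h of MS023 -0.38 to 0.042 and between the inhibitors at 3 h -0.38 to 0.053. Where a group was left with 1 library it was assumed to vary like the other groups.

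Depth limits PDK3 and PPARD most, which had 25 to 76 and 33 to 59 counts per library and the largest standard errors of the 7 genes, and groups of 2 limit all results.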
